A study of Mus musculus with 16 samples.

Results

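The genes described here are 44 genes of mitosis: the mitotic cyclins and kinases, the regulators of chromosome separation, the spindle kinesins and the proteins of cytokinesis. They were chosen by gene symbol for these known roles, and all 44 were found among the 49584 genes of the deposited count table and among the 15240 genes that passed the filter on low counts. RNA was sequenced from germinal centre B cells of the spleen of C57BL/6J mice, 3 months old, given sheep red blood cells (SRBC) and killed on day 8. The mutant mice were Ezh2(Y641F)fl/wt;Cγ1-cre, with 1 conditional allele of the histone methyltransferase gene Ezh2 that carries the Y641F change and is switched on by Cγ1-cre, a Cre driven from the Ighg1 locus that acts in germinal centre B cells. The control mice carried Cγ1-cre without the Ezh2 allele. Both genotypes are labelled as heterozygous for the Cre and as belonging to 1 litter, and the table does not tell transcripts of the mutant allele from those of the wild-type allele.

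Cells were sorted as B220+, FAS+ and CD38-, with centrocytes of the light zone taken as CXCR4- and CD86+, and centroblasts of the dark zone as CXCR4+ and CD86-. The 4 groups were mutant centrocytes, control centrocytes, mutant centroblasts and control centroblasts, with 4 libraries each that the design text calls biological replicates. None of the 44 genes was used in the sort. Naive B cells, which the study also sampled, are not analysed here.

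Entry into mitosis is driven by the kinase CDK1 bound to cyclin A or cyclin B, with PLK1 and Aurora A as further kinases. Chromosomes are then separated once the anaphase-promoting complex (APC/C) marks cyclin B and securin for destruction, and kinesins and the midzone proteins complete the spindle and the cleavage furrow. Transcripts of these genes peak in G2 and mitosis, under the transcription factor FOXM1 and the MuvB complex with B-MYB. Centroblasts are known as the rapidly dividing cells of the germinal centre, whereas most centrocytes are between divisions.

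Libraries held 35230563 to 44466911 counted reads, and the 44 genes together took 0.434% to 1.02% of them. All 9 germinal centre B cell markers had counts in every group. Libraries 1 and 2 of each group had 247 to 371 CPM (read counts scaled to the size of the library) of Y-linked transcripts and libraries 3 and 4 had 0.129 to 1.39 CPM, so the numbers also separate male from female libraries. The 15 macrophage markers, none of them at 0 throughout a group, summed to 55.4 to 333 CPM in mutant centrocytes, 78.5 to 128 CPM in control centrocytes, 39.8 to 107 CPM in mutant centroblasts and 28.5 to 86.5 CPM in control centroblasts, with the 2 highest sums in mutant centrocyte libraries 3 and 4. Ezh2 itself was lower in mutants, with log2 changes of −0.37 ± 0.12 (SE, adjusted p = 0.0395) in centrocytes and −0.38 ± 0.12 (SE, adjusted p = 0.0486) in centroblasts by the edgeR quasi-likelihood test.

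Control centroblast library 4 stood apart for these genes. It was the lowest of its group for 21 of the 44, and for 19 it lay below the highest mutant centroblast library. The 22 members with transcripts longer than the median of 3556 bases had a median deviation of −0.45 (log2) from the mean of the group in this library, and the 22 shorter ones 0.20. The correlation of that deviation with transcript length was −0.63 over the 44 genes (Spearman, across genes of 1 library) and −0.28 over the 14736 tested genes with a length. The summed level, levels per length, counts, medians and length correlations that rest on control centroblasts are therefore also given without this library. Length trends were not confined to it. Across the 16 libraries the correlation with length ran from −0.63 to 0.77 over the 44 genes, the highest being control centroblast library 2. Over the tested genes it ran from −0.32 in mutant centroblast library 2 to 0.26 in mutant centroblast library 1. Deviations are from the mean of the whole group. Those of control centroblast library 2 are thus not independent of library 4.

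**Figure D1:**
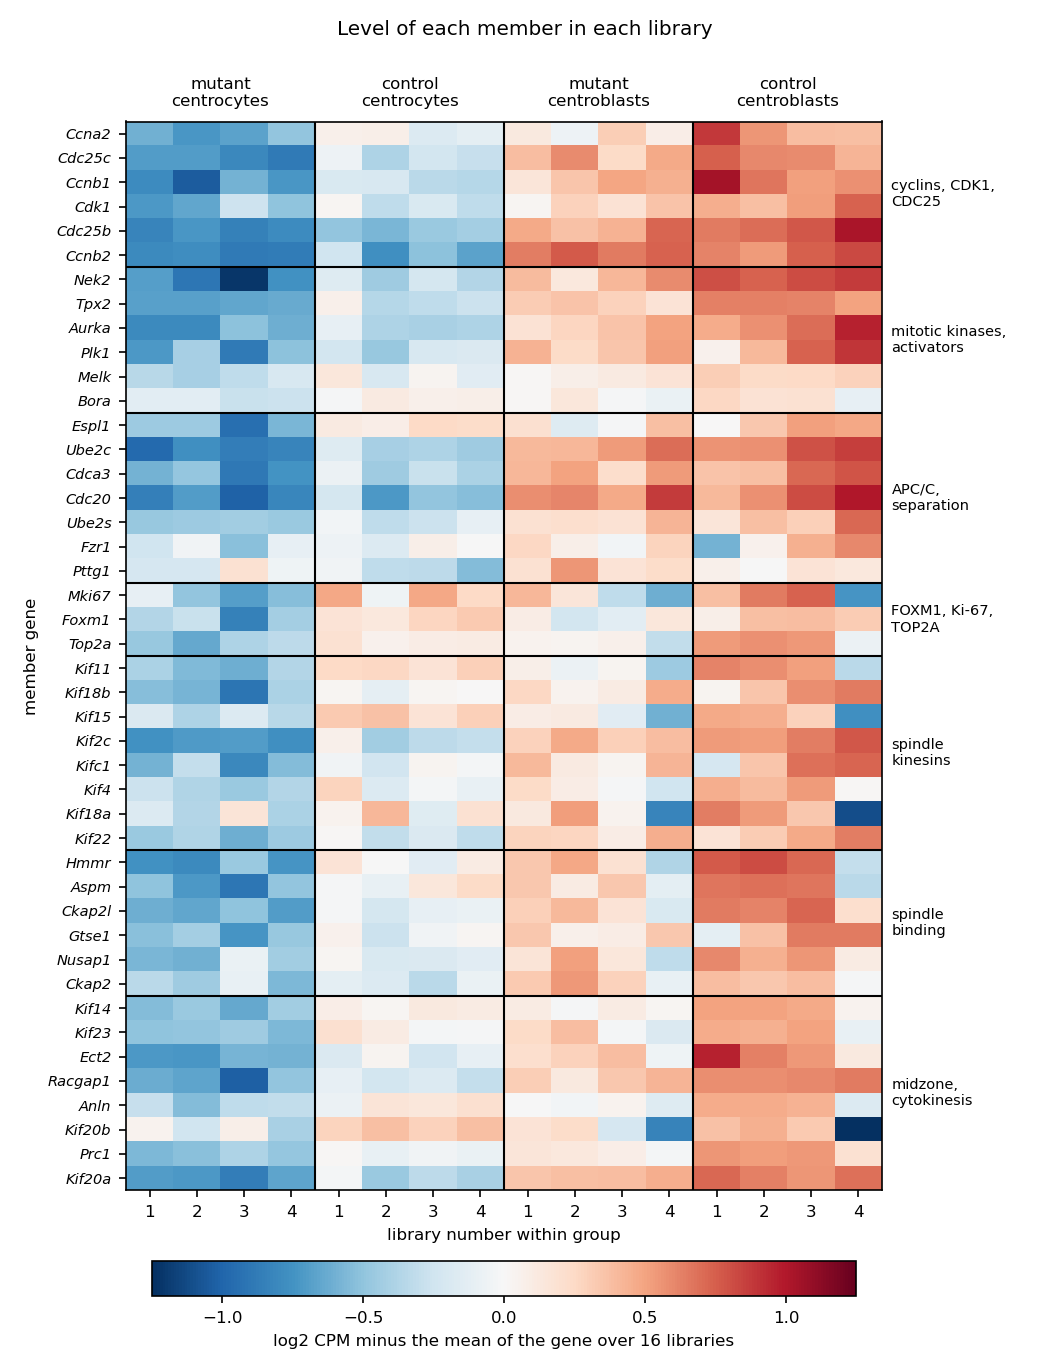
Level of each of the 44 mitotic genes (rows, grouped by role) in each of the 16 libraries (columns), as log2 CPM minus the mean of the gene over all libraries. Mutant centrocytes are the bluest block for most genes and control centroblasts the reddest, and control centroblast library 4 is blue for long genes such as Kif20b and Kif18a.

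The summed level of the 44 genes was 4385 to 4838 CPM in mutant centrocytes and 6084 to 7229 CPM in control centrocytes. It was 7038 to 8112 CPM in mutant centroblasts and 8032 to 10185 CPM in control centroblasts. The 4 groups thus had rising ranges in the order mutant centrocytes, control centrocytes, mutant centroblasts and control centroblasts. The ranges of control centrocytes and mutant centroblasts overlapped. Those of mutant and control centroblasts overlapped in control library 4 alone, at 8032 CPM, and the other 3 control libraries had 9357 CPM or more. In bulk RNA, fewer cells in mitosis and less RNA of these genes per cell cannot be told apart.

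Per length, levels in control centroblasts spanned 169.5 ± 15.3 CPM per kb for Ccnb2 (cyclin B2) to 3.67 ± 1.54 CPM per kb for Kif18a, a kinesin that damps chromosome movements (mean ± SD, n = 4). The next highest were Cdc25b, a phosphatase that activates CDK1, at 157 ± 18.7 CPM per kb, and Mki67, which encodes the proliferation marker Ki-67, at 154 ± 57.9 CPM per kb. Cdc20, an activator of the APC/C, followed at 139 ± 25.5 CPM per kb and Top2a, which encodes topoisomerase II alpha, at 124 ± 23.9 CPM per kb. The SDs of these 5 neighbours in the order overlap. Without library 4 the same 5 genes were the highest but Mki67 came first, at 181 ± 23.4 CPM per kb, and Kif18a stayed the lowest, at 4.41 ± 0.457 CPM per kb (mean ± SD, n = 3). At the low end, next to Kif18a, lay Anln (anillin, a scaffold of the contractile ring) at 5.35 ± 1.03 and Kif14 (a kinesin of the midzone) at 5.60 ± 0.811 CPM per kb.

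In centrocytes, 27 of the 44 genes were lower in mutants and 0 were higher at an adjusted p under 0.05 (edgeR quasi-likelihood test, Benjamini-Hochberg over all 15240 genes). Over all tested genes 9.15% were lower and 7.37% higher by the same rule. The median log2 change of the 44 was −0.48, against 0.00 over all genes, and 43 had a negative estimate. In 36 of the 44, every mutant library lay below every control library, which held for 12.4% of all genes. DESeq2 called 33 lower and 0 higher, and 0 of the 44 had a positive estimate at an unadjusted p under 0.05 in either tool.

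Among cyclins, CDK1 and its activating phosphatases, 4 of 6 fell in mutant centrocytes: Ccna2, Cdc25c, Ccnb1 and Cdc25b. Ccna2 encodes cyclin A2, which acts in S phase and at mitotic entry (mm10, chr3:36564865-36572150, minus strand). It had 160.3, 146, 153 and 173 CPM in mutant centrocyte libraries 1 to 4, against 253, 255, 216 and 224 CPM in control centrocyte libraries 1 to 4. The mutant libraries were all lower, and the change was −0.59 ± 0.12 (SE), adjusted p = 0.00268. Ccnb1, the main mitotic cyclin, had 17.0 to 23.2 CPM in mutant and 27.3 to 30.6 CPM in control centrocytes (log2 change −0.50 ± 0.13 (SE), adjusted p = 0.0125).

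The phosphatases CDC25B and CDC25C remove the inhibitory phosphates from CDK1. Cdc25b had 190.3, 204, 187 and 196 CPM in mutant centrocytes and 239, 227, 244 and 250.6 CPM in control centrocytes. Its groups did not overlap, and the change was −0.31 ± 0.10 (SE), adjusted p = 0.045. Cdc25c changed by −0.53 ± 0.11 (SE), adjusted p = 0.00279. Cdk1 itself and Ccnb2 did not pass the test, with estimates of −0.33 for Cdk1 (adjusted p = 0.0654) and −0.30 for Ccnb2 (adjusted p = 0.0594).

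Of the mitotic kinases and their activators, 4 of 6 fell in mutant centrocytes: Nek2, Tpx2, Aurka and Melk. Nek2, a kinase that separates the centrosomes (mm10, chr1:191821444-191833050, plus strand), had 81.6, 70.5, 56.5 and 77.8 CPM in mutant centrocytes and 118, 96.8, 113 and 102 CPM in control centrocytes. Library 3 was the lowest mutant, and no mutant library reached the lowest control. The log2 change was −0.59 ± 0.12 (SE), adjusted p = 0.00271. Tpx2, which activates Aurora A on spindle microtubules, had 149.5, 149.8, 152 and 154 CPM in mutant centrocytes and 250.4, 187, 192 and 199 CPM in control centrocytes. The mutant values lay within 5 CPM of each other, control library 1 was the highest, and the change was −0.45 ± 0.094 (SE), adjusted p = 0.00366.

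Aurka, the Aurora A gene, changed by −0.36 ± 0.12 (SE), adjusted p = 0.0469, and Melk, a kinase gene of dividing cells, by −0.28 ± 0.094 (SE), adjusted p = 0.0465. Plk1 (Polo-like kinase 1) had 57.6 to 80.0 CPM in mutant and 76.6 to 94.2 CPM in control centrocytes, which overlap (log2 change −0.36 ± 0.15 (SE), adjusted p = 0.115). Bora, a cofactor through which Aurora A activates PLK1, had 35.1 to 38.9 CPM in mutant and 42.2 to 46.0 CPM in control centrocytes. These do not overlap, yet the gene did not pass the test (adjusted p = 0.0717).

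In the group of APC/C regulators and sister chromatid separation, 3 of 7 fell in mutant centrocytes: Espl1, Ube2c and Cdca3. Espl1 encodes separase, the protease that cuts cohesin at anaphase (mm10, chr15:102296266-102324357, plus strand), and had the most negative log2 change of the 44. It had 76.2, 76.2, 54.3 and 70.3 CPM in mutant centrocytes, against 112, 111, 124 and 122 CPM in control centrocytes. All mutant libraries were lower, by 1.69-fold in the fit (log2 change −0.76 ± 0.14 (SE), adjusted p = 0.00127). Ube2c, the APC/C's ubiquitin-conjugating enzyme, had 39.5, 45.8, 42.8 and 43.9 CPM in mutant centrocytes and 69.5, 58.3, 59.3 and 57.2 CPM in control centrocytes (log2 change −0.51 ± 0.10 (SE), adjusted p = 0.00282).

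Cdca3, a trigger of mitotic entry, changed by −0.38 ± 0.13 (SE), adjusted p = 0.0469. Cdc20 had 87.4, 97.6, 78.3 and 89.7 CPM in mutant centrocytes and 136, 96.0, 113 and 109.5 CPM in control centrocytes, where mutant library 2 lay just above control library 2, and it did not pass the test (−0.36 ± 0.13 (SE), adjusted p = 0.0743). Ube2s, which extends ubiquitin chains on APC/C targets, had an adjusted p of 0.11, and Fzr1, the APC/C activator of late mitosis and G1, one of 0.535. Pttg1, which encodes the separase inhibitor securin, was the 1 member with a positive estimate: 23.6 to 31.2 CPM in mutant and 18.8 to 26.6 CPM in control centrocytes (log2 change 0.24 ± 0.13 (SE), adjusted p = 0.218). Reads of Ube2s and of the ribosomal protein gene Rpl28 overlap on opposite strands, and the strand setting of the counting is not given, so Ube2s counts are uncertain.

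Foxm1 and Top2a fell in mutant centrocytes and Mki67 did not pass. Foxm1 had 98.0, 104, 70.2 and 94.0 CPM in mutant centrocytes and 143, 138, 153 and 159 CPM in control centrocytes. The groups stood clear of each other, with mutant library 3 the lowest, and the change was −0.69 ± 0.12 (SE), adjusted p = 0.000972. Top2a, whose product untangles chromosomes, had 600.4, 536, 641.1 and 668 CPM in mutant centrocytes and 957, 868, 889 and 895 CPM in control centrocytes (−0.56 ± 0.13 (SE), adjusted p = 0.00852). Mki67 had 1121, 857, 751 and 834 CPM in mutant centrocytes and 1683, 1166, 1684 and 1434 CPM in control centrocytes. Its mutant libraries were all lower and its estimate was close to that of Espl1, but with a wide error (−0.74 ± 0.26 (SE), adjusted p = 0.0624).

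Of the 8 spindle kinesins, 3 fell in mutant centrocytes: Kif11, Kif18b and Kif2c. Kif11 (mm10, chr19:37376403-37421859, plus strand), the motor that pushes the spindle poles apart, had 169, 152, 146 and 173 CPM in mutant centrocytes and 264, 266, 251.1 and 274 CPM in control centrocytes. The lowest control library was well above the highest mutant library, and the change was −0.72 ± 0.16 (SE), adjusted p = 0.00629. Kif2c, a microtubule depolymerase of the centromere, had 48.1, 49.9, 50.1 and 47.9 CPM in mutant centrocytes and 84.7, 60.0, 64.7 and 66.2 CPM in control centrocytes (−0.49 ± 0.10 (SE), adjusted p = 0.00377). Kif18b, which shortens astral microtubules, changed by −0.58 ± 0.14 (SE), adjusted p = 0.00801.

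The other 5 kinesins had negative estimates without passing. Kif4, a kinesin of chromosome arms and midzone, had an adjusted p of 0.0521, Kifc1, a minus-end motor, of 0.0631 and Kif15, a partner of KIF11, of 0.0652. Kif22, which moves chromosome arms, had an adjusted p of 0.0962 and Kif18a of 0.495. Of these, Kif18a alone overlapped between the groups, at 23.2 to 34.0 CPM in mutant and 27.4 to 40.6 CPM in control centrocytes. Kif4 and Kif22 have named pseudogenes, as do Ccnb1 and Ccnb2, and their reads may be split between copies.

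Genes of spindle microtubule-binding proteins fell in 4 of 6 cases: Hmmr, Aspm, Ckap2l and Gtse1. Hmmr, which encodes a hyaluronan-binding protein that sits on the spindle, had 43.7, 42.7, 53.5 and 44.5 CPM in mutant centrocytes and 83.2, 73.8, 67.1 and 79.4 CPM in control centrocytes. The mutant libraries were all lower, with library 3 the highest of them, and the change was −0.72 ± 0.20 (SE), adjusted p = 0.0232. Aspm, a protein of the spindle poles, changed by −0.72 ± 0.18 (SE), adjusted p = 0.0132. Ckap2l had 67.2, 65.7, 72.4 and 63.4 CPM in mutant centrocytes and 102, 88.7, 96.1 and 97.1 CPM in control centrocytes, and the 2 groups were again apart (−0.51 ± 0.12 (SE), adjusted p = 0.00976).

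Gtse1, a microtubule-bound protein of G2 and mitosis, changed by −0.48 ± 0.15 (SE), adjusted p = 0.0342. Nusap1, which bundles spindle microtubules, had 103, 101, 144 and 114 CPM in mutant centrocytes and 156, 134, 135 and 139 CPM in control centrocytes. Mutant library 3 exceeded 3 of the 4 controls, and the gene did not pass (−0.29 ± 0.16 (SE), adjusted p = 0.224). Ckap2 did not pass either (adjusted p = 0.422).

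The midzone and cytokinesis proteins were the role with the highest share called in centrocytes: 7 of 8 fell in mutants, and in all 8 the groups did not overlap. Kif14, a kinesin needed for the final cut between daughter cells, had 30.4, 32.1, 28.4 and 32.7 CPM in mutant centrocytes and 46.7, 45.0, 48.3 and 47.5 CPM in control centrocytes. The spread within each group was small next to the gap, and the change was −0.60 ± 0.10 (SE), adjusted p = 0.000935. Prc1, which bundles the microtubules of the midzone, had 91.7, 93.8, 103 and 96.2 CPM in mutant centrocytes and 137, 127, 131 and 128 CPM in control centrocytes (−0.44 ± 0.09 (SE), adjusted p = 0.00317). Kif20a, a midzone kinesin that carries the chromosomal passenger complex, had 127, 125, 113 and 130.2 CPM in mutant centrocytes and 202, 149, 164 and 156 CPM in control centrocytes, all mutants again being lower (−0.44 ± 0.096 (SE), adjusted p = 0.00495).

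Kif23 and Racgap1 encode the centralspindlin complex, which recruits the RhoA activator ECT2 to the cell's equator, and anillin then links RhoA to the contractile ring. Kif23 changed by −0.57 ± 0.13 (SE), adjusted p = 0.0072, and Racgap1 by −0.49 ± 0.10 (SE), adjusted p = 0.00405. For Ect2 the change was −0.54 ± 0.14 (SE), adjusted p = 0.0156, and for Anln it was −0.47 ± 0.13 (SE), adjusted p = 0.0184. The genes that encode this furrow pathway thus fell together, each by 1.39-fold to 1.49-fold. Kif20b, the 8th member, had 43.9 to 61.2 CPM in mutant and 70.3 to 75.4 CPM in control centrocytes and an adjusted p of 0.286.

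Of the 27 genes called lower in mutant centrocytes, 19 stayed called whichever of the 16 libraries was left out, and none changed direction. Without mutant centrocyte libraries 3 and 4, the libraries with the highest macrophage sums, 14 genes were called lower, 13 of them among the 27. Over all genes 4.55% were lower in that fit, and the median log2 change of the 44 was −0.47 instead of −0.48. With all 16 libraries, 2 of the 15 macrophage markers were called higher in mutant centrocytes. A negative estimate was found for 0 of the 15, and their median log2 change was 0.97. Erythroid markers, 6 in number, summed to 19.6 to 40.1 CPM in mutant and 11.9 to 19.2 CPM in control centrocytes. Of the 5 tested, 1 was called higher and 0 had a negative estimate, with a median log2 change of 0.69. The part of the erythroid markers in the result was not tested. Libraries 1 and 2 alone gave a median of −0.51 with 14 genes called, and libraries 3 and 4 alone −0.44 with 8 called. Over all genes 3.85% were lower with libraries 1 and 2 and 7.22% with libraries 3 and 4.

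**Figure D2:**
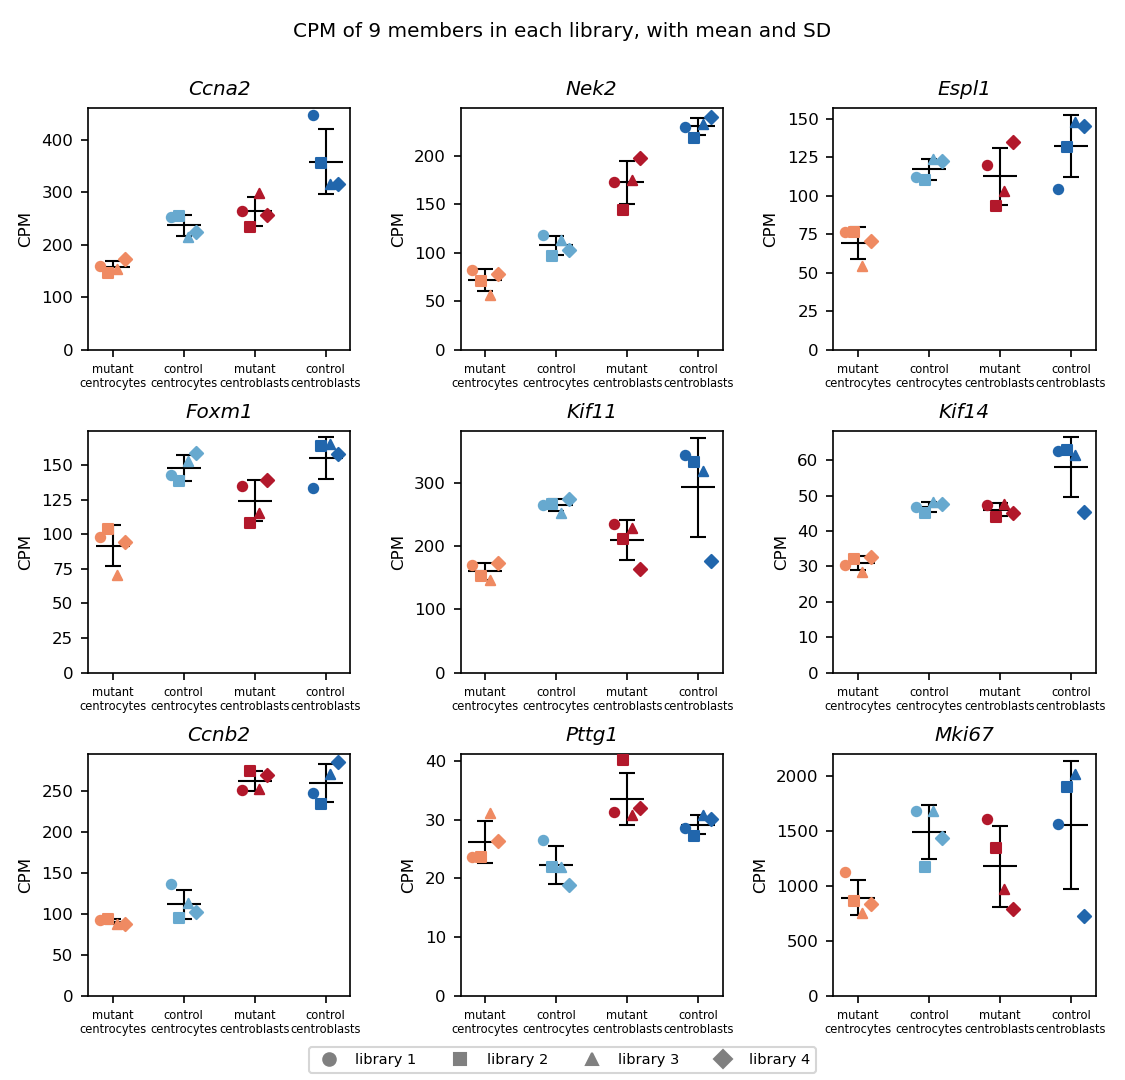
CPM (y axis, from 0) of 9 of the mitotic genes in each library, by group (x axis), with 1 marker shape per library number; the bar is the mean and the whisker the SD of 4 libraries. Ccna2, Nek2, Espl1, Foxm1, Kif11 and Kif14 show mutant centrocytes below control centrocytes in every library, Pttg1 and Ccnb2 come close or overlap, and Mki67 spreads widely within groups.

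In centroblasts, fewer of the genes passed: 6 of 44 were lower in mutants and 0 higher, where 6.4% of all tested genes were lower and 4.06% higher. These were Prc1, Ccna2, Nek2, Top2a, Tpx2 and Kif14, and all 6 were also among the 27 called in centrocytes. The median log2 change of the 44 was −0.27, against 0.01 over all genes, and 41 had a negative estimate. All mutant libraries lay below all control libraries in 10 of the 44, which held for 8.01% of all genes. At an unadjusted p under 0.05, 0 members were higher, and DESeq2 called 11 lower and 0 higher.

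Prc1 had 149.6, 148, 143 and 133 CPM in mutant centroblast libraries 1 to 4, against 198, 194, 197 and 154 CPM in control centroblast libraries 1 to 4. Control library 4 was the lowest control and still above every mutant (−0.37 ± 0.09 (SE), adjusted p = 0.011). Ccna2 had 265, 233, 299.6 and 257 CPM in mutant centroblasts and 447, 356, 317 and 315 CPM in control centroblasts, again without overlap (−0.44 ± 0.12 (SE), adjusted p = 0.0198). Nek2 had 173, 144, 175 and 198 CPM in mutant centroblasts and 229, 219, 232 and 240.4 CPM in control centroblasts (−0.42 ± 0.12 (SE), adjusted p = 0.0282). For this centrosome kinase the controls lay close together and the mutants spread more.

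Tpx2 had 298, 308, 293 and 269 CPM in mutant centroblasts and 372, 371, 368 and 339 CPM in control centroblasts (−0.31 ± 0.094 (SE), adjusted p = 0.0411). Top2a had 862, 855, 872 and 674 CPM in mutant centroblasts and 1209.5, 1239, 1219.9 and 793 CPM in control centroblasts (−0.45 ± 0.13 (SE), adjusted p = 0.0376). Kif14 had 47.4, 43.9, 47.6 and 45.0 CPM in mutant centroblasts and 62.5, 62.8, 61.3 and 45.5 CPM in control centroblasts (−0.34 ± 0.10 (SE), adjusted p = 0.0474). For Top2a and Kif14 the groups overlapped in control library 4, while the other 3 controls were above every mutant.

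Several genes with clear changes in centrocytes did not pass in centroblasts. Espl1 had 119.9, 93.0, 103 and 135 CPM in mutant centroblasts and 104, 132, 148 and 145 CPM in control centroblasts, which overlap (−0.23 ± 0.14 (SE), adjusted p = 0.345). Foxm1 had 135, 108, 115 and 139 CPM in mutant centroblasts and 133, 164, 165 and 158 CPM in control centroblasts (−0.32 ± 0.12 (SE), adjusted p = 0.111). Kif11 had 234, 212, 228 and 163 CPM in mutant centroblasts and 343, 332, 318 and 176 CPM in control centroblasts, and control library 4 alone reached the mutant range (−0.48 ± 0.16 (SE), adjusted p = 0.072). The 2 genes with estimates nearest 0 or above were Ckap2 at 0.00 and Ccnb2 at 0.02, and Pttg1 had 30.8 to 40.2 CPM in mutant and 27.2 to 30.8 CPM in control centroblasts, all mutants being higher without passing (adjusted p = 0.371).

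The count of 6 depends on single libraries and on the fit. It was 1 in a fit to the centroblast libraries alone, 0 with the library number as a block and 3 with no filter on low counts. It was 16 without control centroblast library 4, where 1319 of all genes were lower against 976 with it, and 1 without mutant centroblast library 1, and 2 or 3 when any one of control centroblast libraries 1 to 3, mutant centroblast libraries 2 to 4 or control centrocyte library 4 was left out. Prc1 alone stayed called whichever of the 16 libraries was left out (highest adjusted p = 0.03996, edgeR quasi-likelihood test). Prc1 was not called with the library number as a block or in libraries 3 and 4 alone, where 0 of the 44 passed. Libraries 1 and 2 alone gave a median of −0.25 with 8 genes called, and libraries 3 and 4 alone −0.30 with 0 called at the adjusted threshold and 12 at an unadjusted p under 0.05. At the adjusted threshold 7.52% of all genes were lower with libraries 1 and 2 and 2.08% with libraries 3 and 4.

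**Figure D3:**
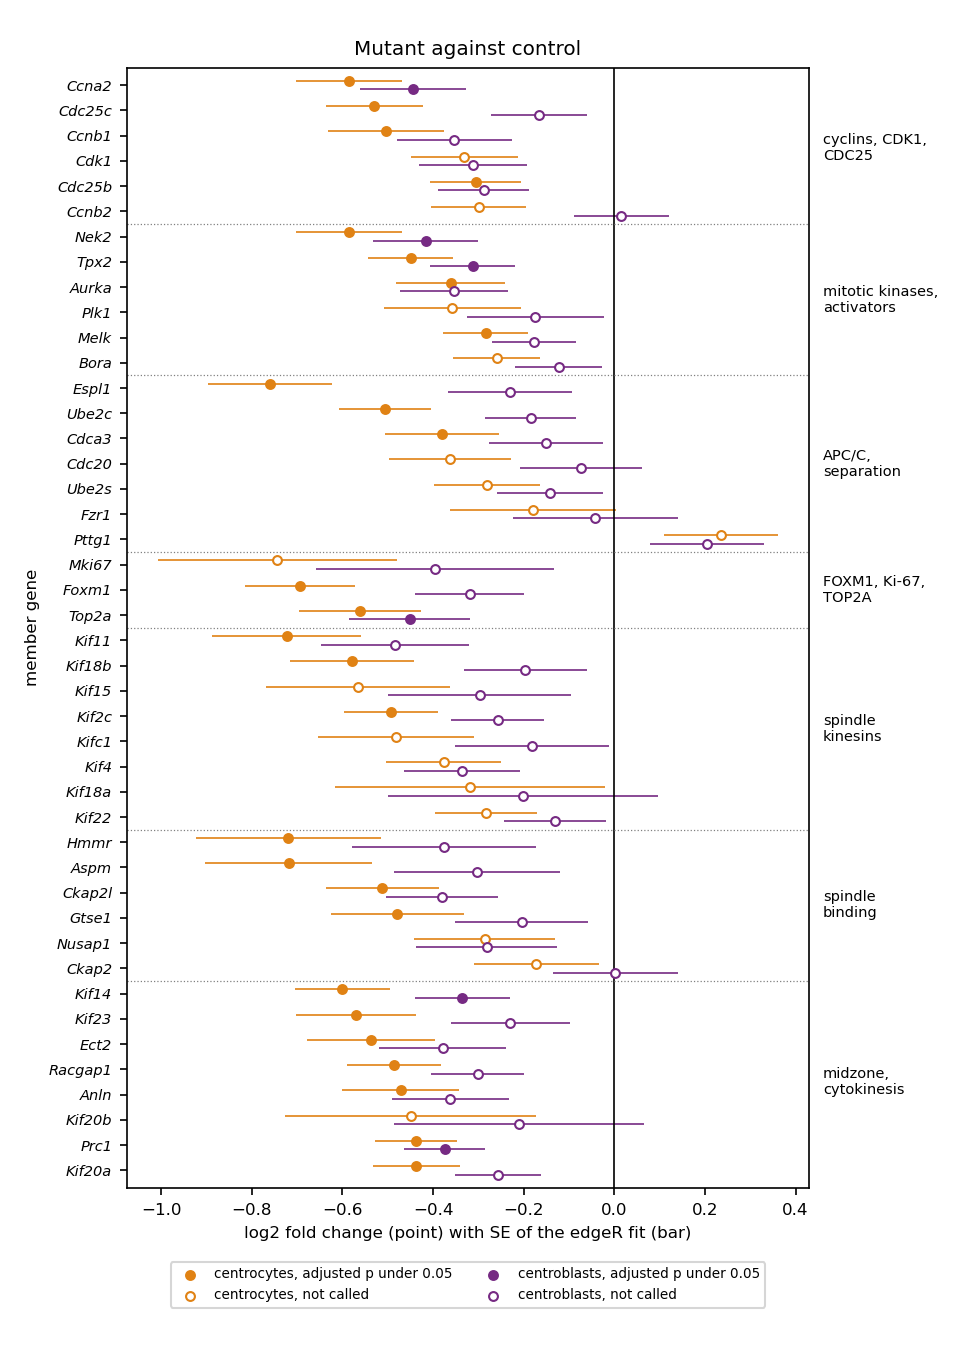
Log2 fold change of mutant over control (x axis) for each of the 44 mitotic genes (y axis, grouped by role), with the SE of the edgeR fit; filled points passed an adjusted p of 0.05. Centrocyte points lie left of the centroblast points for 43 of 44 genes, 27 centrocyte and 6 centroblast points are filled, and Pttg1 is right of 0 in both.

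Whether the mutant effect differed between the cell types was tested as an interaction. None of the 44 genes passed in either direction (edgeR quasi-likelihood test, 0 of all 15240 genes, 0%), and DESeq2 also called 0 of the 44. At an unadjusted p under 0.05 there were 5 of the 44, against 2.81% of all genes, all with a larger fall in centrocytes. They were Espl1 (−0.53 ± 0.19 SE), Cdc25c (−0.36 ± 0.15 SE), Ube2c (−0.32 ± 0.14 SE), Foxm1 (−0.37 ± 0.17 SE) and Ccnb2 (−0.31 ± 0.15 SE), each with an adjusted p = 0.999 in the edgeR fit.

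The estimate was negative for 43 of the 44, with a median of −0.18 against 0.01 over all genes. Across the 44 genes, the changes in centrocytes and centroblasts had a Spearman correlation of 0.66, which is a description across genes that share their libraries. The difference between 27 and 6 calls is therefore not shown to be a difference in effect for any single gene. Without mutant centrocyte libraries 3 and 4, 0 of the 44 were under an unadjusted p of 0.05 in this test. Without control centroblast library 4, 6 were, the median was −0.12 and 36 of the 44 had a negative estimate.

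Centrocytes had less of these transcripts than centroblasts in both genotypes. In mutants 35 of the 44 were lower in centrocytes and 0 higher, against 7.07% lower and 8.92% higher over all tested genes, with a median log2 change of −0.75 against 0.02 over all genes. In controls 30 of the 44 were lower and 0 higher, against 12.9% lower and 14.9% higher, with a median of −0.52 against 0.00. All centrocyte libraries lay below all centroblast libraries for 36 members in mutants (10.5% of all genes) and for 26 in controls (12.3% of all genes). At an unadjusted p under 0.05, 0 members were higher in either genotype, and DESeq2 called 36 lower in mutants and 31 in controls, with 0 higher in either. Without control centroblast library 4, 32 were lower in controls, against 11.5% of all genes, and the median was −0.57. Naive follicular B cell markers, 7 in number, summed to 972 to 1159 CPM in mutant centrocytes and 467 to 634 CPM in mutant centroblasts. In controls the sums were 1062 to 1240.0 CPM in centrocytes and 567 to 658 CPM in centroblasts. Of these 7 markers, 3 were called higher and 1 lower in centrocytes of each genotype. Of the 15 macrophage markers, with the sums given above, 4 were called higher in centrocytes of mutants and 1 in controls, and 0 lower. Their median log2 change was 1.51 in mutants, with 0 negative estimates, and 0.89 in controls, with 2 negative estimates. The 5 follicular dendritic cell markers in the table summed to 641.03 to 739 CPM in mutant centrocytes and 309 to 379 CPM in mutant centroblasts, with 1 of 2 tested called higher. In controls they summed to 494 to 691 CPM in centrocytes and 155 to 338 CPM in centroblasts, where Cxcl13 had 0 reads, with 2 of 2 called higher. The part of these markers in the result was not tested.

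By role, the cyclins, CDK1 and its phosphatases had the lowest median change, −1.17 in mutants and −0.91 in controls. Ccnb2 had 92.7, 93.9, 87.6 and 87.7 CPM in mutant centrocytes, against 252, 275, 253 and 269 CPM in mutant centroblasts. In controls it had 136, 94.7, 113 and 102 CPM in centrocytes, against 247, 234, 271 and 286 CPM in centroblasts. Neither genotype overlapped, and the changes were −1.54 ± 0.11 (SE), adjusted p = 4.82e-08 in mutants, the most negative of the 44, and −1.22 ± 0.11 (SE), adjusted p = 3.74e-07 in controls.

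Cdc25b had 468, 434, 456 and 557 CPM in mutant centroblasts and 528, 548, 578 and 684 CPM in control centroblasts, and with the centrocyte values given above its changes were −1.30 ± 0.10 (SE), adjusted p = 1.66e-07 in mutants and −1.28 ± 0.10 (SE), adjusted p = 1.27e-07 in controls. Cdc20 had 237, 242, 220.2 and 290.0 CPM in mutant centroblasts and 209, 236, 279 and 317 CPM in control centroblasts. Its changes were −1.49 ± 0.14 (SE), adjusted p = 9.85e-07 in mutants and −1.20 ± 0.14 (SE), adjusted p = 7.23e-06 in controls. All 6 cyclin, CDK1 and CDC25 genes were called lower in centrocytes of both genotypes, the mildest change being −0.60 for Ccna2 in controls.

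Of the mitotic kinases and activators, 5 of 6 were lower in centrocytes of each genotype, Bora being the exception. Nek2 changed by −1.27 ± 0.12 (SE), adjusted p = 1.16e-06 in mutants and −1.10 ± 0.12 (SE), adjusted p = 3.96e-06 in controls. Aurka changed by −1.01 in mutants and −1.0 in controls, Plk1 by −1.01 in mutants and −0.82 in controls, and Tpx2 by −0.95 in mutants and −0.81 in controls, all called. Melk had the mildest called change of the role, −0.41 in mutants and −0.30 in controls.

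Among APC/C regulators, Ube2c had 103, 104, 112 and 126 CPM in mutant centroblasts and 115, 115, 135 and 141 CPM in control centroblasts and all were above every centrocyte library, with changes of −1.37 ± 0.10 (SE), adjusted p = 1.24e-07 in mutants and −1.05 ± 0.10 (SE), adjusted p = 1.35e-06 in controls. Espl1 was called in mutants (−0.70 ± 0.14 (SE), adjusted p = 0.0017) and not in controls (−0.17 ± 0.14 (SE), adjusted p = 0.367). Pttg1 was not called in mutants (−0.36 ± 0.13 (SE), adjusted p = 0.0642) and was the 1 member called in controls alone (−0.39 ± 0.13 (SE), adjusted p = 0.0302), with nearly equal estimates. Fzr1, which acts after mitosis, did not pass in either genotype.

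Foxm1 and Top2a were lower in centrocytes of mutants and did not pass in controls. The estimate for Foxm1 was −0.44 ± 0.12 (SE), adjusted p = 0.0185 in mutants and −0.07 ± 0.12 (SE), adjusted p = 0.728 in controls. That for Top2a was −0.42 ± 0.13 (SE), adjusted p = 0.0419 in mutants and −0.31 ± 0.13 (SE), adjusted p = 0.0986 in controls. Mki67 had 1610.1, 1345, 966 and 789 CPM in mutant centroblasts and 1562, 1894, 2017 and 725 CPM in control centroblasts, and its estimates of −0.40 ± 0.26 (SE) in mutants and −0.05 ± 0.26 (SE) in controls did not pass. Ki-67 is made from S phase on and is not restricted to G2 and mitosis.

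Of the kinesins, Kif2c changed most, by −1.10 ± 0.10 (SE), adjusted p = 1.4e-06 in mutants and −0.86 ± 0.10 (SE), adjusted p = 1.29e-05 in controls, with 99.5 to 113 CPM in mutant centroblasts and 117 to 139.5 CPM in control centroblasts. Kif22, Kif18b, Kifc1 and Kif4 were also called in both genotypes. Kif11, Kif15 and Kif18a were called in neither, and Kif11 had estimates of −0.39 ± 0.16 (SE) in mutants and −0.15 ± 0.16 (SE) in controls. All 6 spindle-binding genes were lower in mutant centrocytes and 4 of 6 in control centrocytes, where Hmmr (adjusted p = 0.061) and Aspm (adjusted p = 0.109) did not pass.

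For midzone and cytokinesis, 6 of 8 were lower in mutant centrocytes and 5 of 8 in control centrocytes. Kif20a had 262, 268, 269 and 282 CPM in mutant centroblasts and 338, 319, 302 and 332 CPM in control centroblasts, above every centrocyte library (−1.13 ± 0.097 (SE), adjusted p = 4.16e-07 in mutants and −0.95 ± 0.096 (SE), adjusted p = 2.18e-06 in controls). Racgap1 changed by −0.99 in mutants and −0.80 in controls, and Ect2 by −0.87 in mutants and −0.71 in controls, all called. Kif23 was called in mutants (−0.62) and not in controls (−0.28, adjusted p = 0.126), while Anln and Kif20b passed in neither.

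In all, 29 of the 44 were called in both genotypes, 6 in mutants and not in controls (Espl1, Foxm1, Top2a, Aspm, Hmmr and Kif23), 1 in controls and not in mutants (Pttg1) and 8 in neither. Whether these changes differ between genotypes is the interaction tested above, in which no gene passed. In mutants, same-numbered libraries deviated together. With the library number as a block 39 of the 44 were called, all 35 among them, against 10.4% of all genes. In controls, where the numbers are not shown to pair the samples, the block gave 23 instead of 30, against 9.6% of all genes.

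**Figure D4:**
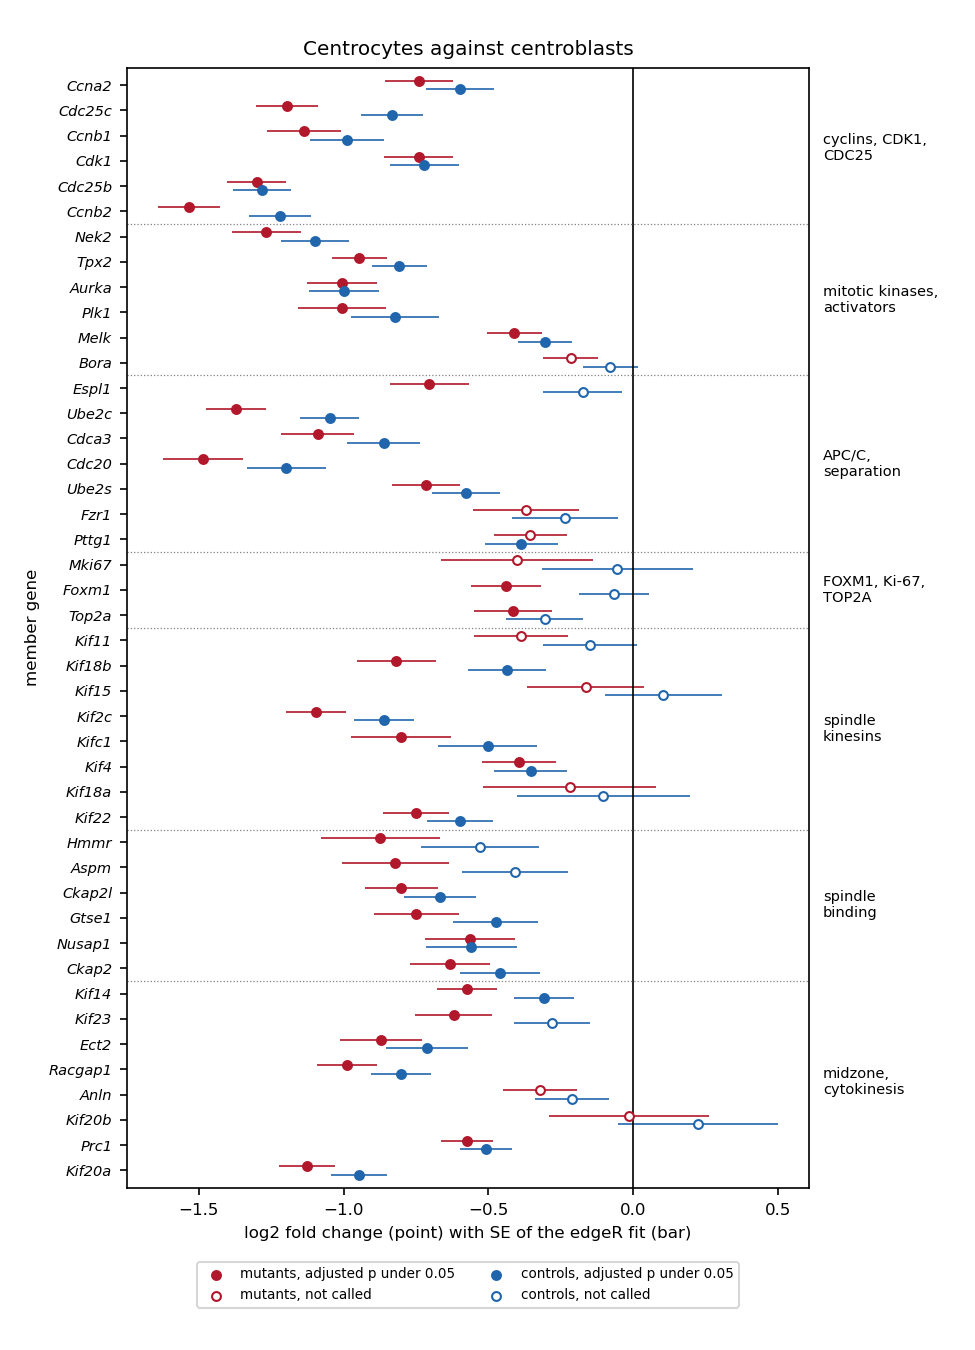
Log2 fold change of centrocytes over centroblasts (x axis) for each of the 44 mitotic genes (y axis, grouped by role), with the SE of the edgeR fit, in mutants and controls; filled points passed an adjusted p of 0.05. Ccnb2 reaches furthest left in mutants, at −1.54, while Kif15, Kif18a, Kif20b, Mki67, Bora and Fzr1 have open points in both genotypes.

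Of the 44 genes, 6 passed in none of the 4 comparisons: Bora, Fzr1, Mki67, Kif15, Kif18a and Kif20b. Of these, Mki67, Kif15, Kif18a and Kif20b had control centroblast library 4 far below their other control centroblast libraries, as in Kif20b with 74.5, 78.7, 72.7 and 24.0 CPM. Conversely, 5 passed in all 4 comparisons, namely Ccna2, Nek2, Tpx2, Prc1 and Kif14. Another 14 passed in centrocytes for genotype and in both zone comparisons but not in centroblasts for genotype.

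Transcript length was related to the changes. Across the 44 genes the mutant change had a Spearman correlation with transcript length of −0.43 in centrocytes and −0.49 in centroblasts, against −0.23 in centrocytes and −0.19 in centroblasts over the 14736 tested genes with a length, so longer transcripts had more negative changes. After an offset that removes trends with GC content and length in each library, the correlations with length over the 44 were 0.09 in centrocytes and 0.18 in centroblasts. The medians were −0.41 in centrocytes and −0.20 in centroblasts. Over the 44, the change correlated with GC content at 0.04 in centrocytes and 0.29 in centroblasts without the offset. With it the correlation with GC content was −0.39 in centrocytes and −0.40 in centroblasts. A negative trend with GC content among the members was thus present only with the offset. In centroblasts the sign was the reverse of that without it. With this offset 33 of the 44 were lower in mutant centrocytes, including all 27, and 17 in mutant centroblasts, including 4 of the 6, with 0 higher in either. Over all genes it gave 1916 lower and 2230 higher in centrocytes, against 1394 lower and 1123 higher without it. In centroblasts it gave 1363 lower and 1527 higher over all genes, against 976 lower and 619 higher without it. Without control centroblast library 4 and with no offset, the correlation of the members' centroblast change with length was −0.66 and that with GC content 0.62.

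The zone comparison ran the other way: the change in centrocytes over centroblasts correlated with length at 0.55 in mutants and 0.64 in controls over the 44, against 0.08 in mutants and 0.15 in controls over all genes. With the offset it was 0.52 in mutants and 0.57 in controls, and without control centroblast library 4 it was 0.50 in controls. In mutants the lowest values were those of Ccnb2, Cdc20 and Ube2c, with transcripts of 1531, 1793 and 2191 bases. In controls the lowest was Cdc25b (−1.28), with 3089 bases. Pttg1, with 1674 bases, changed by −0.36 in mutants and −0.39 in controls. The members' median transcript length was 3556 bases, against 2863 over all genes with a length. These correlations are across genes that share libraries and are given as a description.

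**Figure D5:**
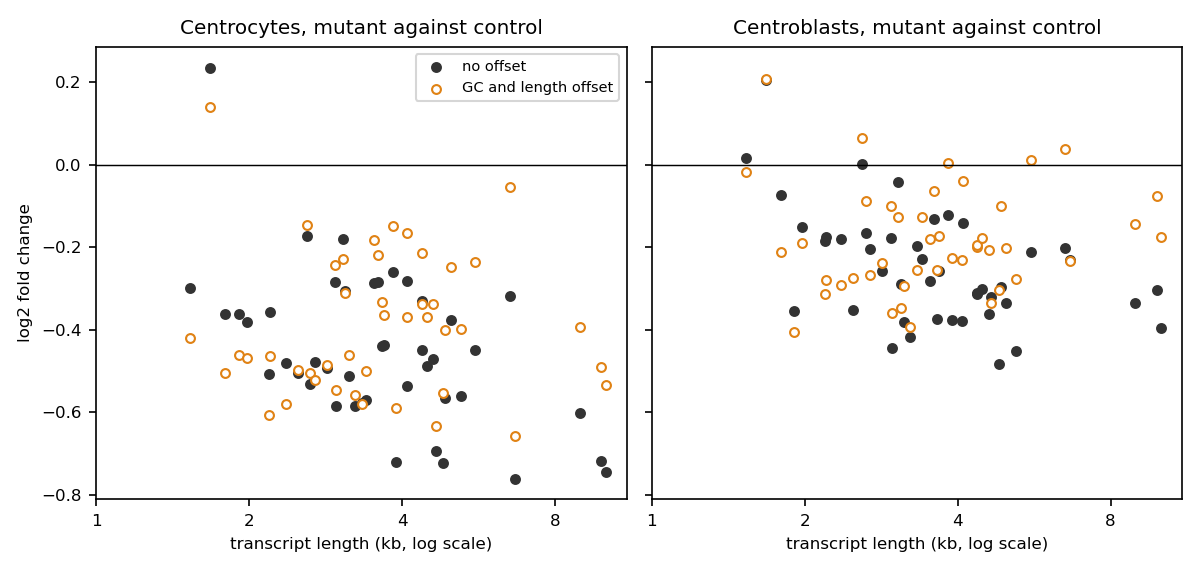
Log2 fold change of mutant over control (y axis) against transcript length in kb (x axis, log scale) for the 44 mitotic genes, in centrocytes (left) and centroblasts (right); filled points are without and open points with the GC and length offset. Without the offset longer genes lie lower (Spearman −0.43 in centrocytes and −0.49 in centroblasts), and with it the correlation is 0.09 in centrocytes and 0.18 in centroblasts, while most points stay below 0.

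The promoters of mitotic genes often hold a cell cycle genes homology region (CHR), the element through which MuvB complexes bind, and a CCAAT box, the element of the factor NF-Y. RefSeq promoter sequences (GRCm38.p6, the assembly that mm10 names, from 250 bases before to 50 after the start) were matched for 38 of the 44 genes; those without an entry were Ccna2, Cdc25c, Bora, Tpx2, Foxm1 and Kif20a. The promoters below are those of the 4 matched genes that were lower in mutants of both cell types. Capitals mark the CHR, searched as the letters TTTGAA and, since both strands were searched, as the reverse complement TTCAAA of these letters. They also mark the CCAAT box, searched by the letters of its name and, on the other strand, by the reverse complement ATTGG. Each line reads 5′ to 3′ on the strand of the gene, and the motifs do not overlap one another in these 4 promoters.
Prc1: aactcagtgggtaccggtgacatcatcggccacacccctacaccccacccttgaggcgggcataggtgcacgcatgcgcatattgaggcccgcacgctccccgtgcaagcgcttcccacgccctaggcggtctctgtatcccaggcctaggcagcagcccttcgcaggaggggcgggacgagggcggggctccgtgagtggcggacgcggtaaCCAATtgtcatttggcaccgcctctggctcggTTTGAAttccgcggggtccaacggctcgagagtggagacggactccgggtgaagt
Kif14: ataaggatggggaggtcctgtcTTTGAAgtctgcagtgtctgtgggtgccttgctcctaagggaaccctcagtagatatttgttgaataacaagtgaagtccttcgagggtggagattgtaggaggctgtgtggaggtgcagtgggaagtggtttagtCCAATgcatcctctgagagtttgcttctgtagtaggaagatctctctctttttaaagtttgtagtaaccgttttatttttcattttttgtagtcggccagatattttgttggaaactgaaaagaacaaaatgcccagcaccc
Top2a: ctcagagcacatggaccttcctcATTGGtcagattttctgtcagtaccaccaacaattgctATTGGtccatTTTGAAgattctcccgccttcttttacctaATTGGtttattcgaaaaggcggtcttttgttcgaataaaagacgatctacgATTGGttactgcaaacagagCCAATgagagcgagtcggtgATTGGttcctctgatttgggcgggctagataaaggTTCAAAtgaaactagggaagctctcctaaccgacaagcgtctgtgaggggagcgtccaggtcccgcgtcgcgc
Nek2: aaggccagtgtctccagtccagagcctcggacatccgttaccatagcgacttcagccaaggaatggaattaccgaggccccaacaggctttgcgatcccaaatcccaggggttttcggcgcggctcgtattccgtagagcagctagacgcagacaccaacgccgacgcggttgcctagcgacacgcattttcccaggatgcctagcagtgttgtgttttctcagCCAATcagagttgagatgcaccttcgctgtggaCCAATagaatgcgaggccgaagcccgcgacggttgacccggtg

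The Prc1 promoter (chr7:80294201-80294500, plus strand) held a CHR that begins 5 bases before the start and a CCAAT 37 bases before it. That of Kif14 (chr1:136467598-136467897, plus strand) held a CHR at 228 and a CCAAT at 92 bases before the RefSeq start. In GENCODE M21 the Kif14 gene begins earlier, at chr1:136466343, so this window lies inside the annotated gene. Its motifs may therefore not be those of the main promoter. For Top2a (chr11:99024140-99024439, minus strand) the search found CHR letters at 179 and 23 bases before the start and 6 CCAAT boxes in either direction between 227 and 58 bases before it. The Nek2 promoter (chr1:191821223-191821522, plus strand) held no CHR letters in this window and a CCAAT on each side of the start.

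Over the 38 promoters, 28 (73.7%) held a CHR, against 12.1% of the promoters of 9643 tested genes and 18.1% of all 27025 promoters. A CCAAT box was in 29 (76.3%), against 39.3% of tested genes and 37.9% of all promoters, and both were in 24 (63.2%), against 5.15% of tested genes and 7.12% of all promoters. Within 50 bases on either side of the start, 24 members (63.2%) held a CHR, against 3.01% of tested genes, in a window chosen after the positions were seen. The 31 DNA replication genes, listed for comparison, had a CHR in 3 of 25 matched promoters (12%). The 28 members with a CHR had a median mutant change of −0.49 in centrocytes and −0.30 in centroblasts, and the 10 without one −0.30 in centrocytes and −0.20 in centroblasts; 17 of the 28 and 5 of the 10 were called lower in centrocytes. Without control centroblast library 4 the centroblast medians were −0.33 with a CHR and −0.20 without one. Between zones of controls the medians were −0.51 with a CHR and −0.52 without one, and 18 of the 28 and 8 of the 10 were called lower. Without that library they were −0.57 with a CHR and −0.42 without one. Between zones of mutants they were −0.78 with a CHR and −0.64 without one, and 23 of the 28 and 7 of the 10 were called lower. A match is a description of letters and not of binding.

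Further mitotic genes are given for comparison. Of 46 other genes of mitosis, among them genes of the kinetochore, checkpoint, condensin and chromosomal passenger complexes and regulators of mitotic entry and exit, 20 were lower in mutant centrocytes and 0 higher (median −0.42), and 3 were lower in mutant centroblasts and 0 higher (median −0.27). Over all tested genes 9.15% were lower in mutant centrocytes and 6.4% in mutant centroblasts. Without control centroblast library 4, 27 of the 46 were lower in centrocytes, against 10.8% of all genes, and 15 in centroblasts, against 8.45%. Examples in centrocytes were Cenpf, a kinetochore protein, with −0.94 ± 0.25 (SE), adjusted p = 0.0156, Incenp, of the passenger complex, with −0.50 ± 0.12 (SE), adjusted p = 0.0104, and Cit (citron kinase, of the midbody) with −0.77 ± 0.11 (SE), adjusted p = 0.00025. Between zones, 24 of the 46 were lower in mutant centrocytes, against 7.07% of all genes, and 23 in control centrocytes, against 12.9%. Pkmyt1, a kinase that holds CDK1 inactive, was higher in control centrocytes (0.74 ± 0.21 (SE), adjusted p = 0.0141).

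DNA replication precedes mitosis in the cycle. Of 31 genes of DNA replication, 7 were lower in mutant centrocytes (median −0.21) and 10 in mutant centroblasts (median −0.34), with 0 higher. The shares called lower over all tested genes were 9.15% in centrocytes and 6.4% in centroblasts. Cdc6, which loads the replicative helicase, changed by −0.42 ± 0.085 (SE), adjusted p = 0.00299 in centrocytes and −0.49 ± 0.085 (SE), adjusted p = 0.00103 in centroblasts. Their interaction estimates had a median of 0.11 with 4 of 31 negative, where the 44 mitotic genes had −0.18 with 43 negative, and no gene of either list passed. The replication genes had 0.06 with 8 negative without control centroblast library 4, where the 44 had −0.12 with 36 negative. In mutants 10 of the 31 were lower in centrocytes than in centroblasts, and in controls 21, or 15 without control centroblast library 4. Over all genes 7.07% were lower in mutants and 12.9% in controls, or 11.5% in controls without that library.

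Of 16 regulators of cell cycle genes (MuvB, MYB, RB and E2F), 3 were lower and 1 higher in mutant centrocytes. Over all tested genes 9.15% were lower and 7.37% higher there. E2f8 and E2f7, repressors that E2F itself induces, changed by −0.73 ± 0.11 (SE), adjusted p = 0.000329 and by −0.59 ± 0.11 (SE), adjusted p = 0.00162. Mybl2, which encodes B-MYB, changed by −0.43 ± 0.14 (SE), adjusted p = 0.0481, and Rbl2, which encodes p130 of the repressive DREAM complex, by 0.37 ± 0.09 (SE), adjusted p = 0.0102. In centroblasts E2f8, E2f7 and Rbl1 were lower in mutants and 0 were higher, with E2f8 at −0.60 ± 0.11 (SE), adjusted p = 0.0017. Over all tested genes 6.4% were lower in mutant centroblasts. Without control centroblast library 4, 7 of the 16 were lower in mutant centrocytes, against 10.8% of all genes, and 6 in mutant centroblasts, against 8.45%.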

How the data were processed

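RNA was sequenced from TruSeq libraries of 16 sorted cell samples. The deposited table holds whole-number read counts per gene symbol, not normalized. Per the submitters' processing notes, the authors trimmed reads with Trim Galore and cutadapt, aligned them to mm10 with STAR 2.5.3a and counted them with featureCounts 1.4.5-p1 of Subread; strand setting and annotation are not given in the sources used here. Of the 44 genes, 16 share exonic bases with a gene on the opposite strand and 2 with one on the same strand, so their counts may hold reads of both.

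Counts were fitted in R 4.3.3 with edgeR 4.0.16 (filterByExpr by group, TMM factors, quasi-likelihood test, 1 mean per group over 16 libraries, 12 residual degrees of freedom). There were 5 comparisons with 2-sided tests; p was adjusted by Benjamini-Hochberg across the 15240 genes tested and a gene was called below an adjusted p of 0.05. CPM use the TMM-adjusted library size, and SDs are over 4 libraries. P values assume that the libraries are separate biological replicates, as the design text states. Reads carry no molecular identifiers, so counting error is a lower bound on the error of a value.

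Lengths, GC content and coordinates came from GENCODE M21 by symbol, for 96.7% of tested genes. Levels per length use the union of exons. Promoters came from RefSeq tables of GRCm38.p6. Other settings were DESeq2 1.42.0, normalization by RLE, all genes kept, genes kept from an average of 1 CPM, fits to only the groups under comparison, a replicate block, libraries 1 and 2 or 3 and 4 alone, an offset per library (4-df splines on GC content and length) with and without the block, and each library left out; leaving out mutant centrocyte libraries 3 and 4 was added after the data were seen. Same-numbered mutant centrocyte and centroblast libraries deviated together from their group means, with correlations of 0.263 to 0.327 for the 4 pairs. All were above the minimum of 0.1, so the blocked count stands beside that comparison. Of the 4 pairs, 1 matched best by number both ways. The labels place all libraries in 1 litter. Sample names carry the number in both genotypes and cell types but do not say that it stands for 1 mouse. Taking the numbers as pairs thus rests on the numbers and these correlations. The procedure was tested on simulated counts with 200 changed genes.

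Per-library values are given, in each role, for the called gene with the largest log2 change in each genotype comparison and in the zone comparison of controls, for the gene of highest level per length and for the 3 genes of smallest interaction p, with ranges for genes called nowhere. Further values were chosen after they were seen. The members, lists and settings were chosen with earlier results of these data known.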

Additional observations from a re-analysis of the deposited data

Results flagged for a closer look

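In groups of 4 libraries, the gap between an extreme library and its nearest neighbour passed Dixon's 95% critical value for 17 of the 176 combinations of a mitotic gene and a group, a test that chance alone passes in about 1 of 20 groups. Control centroblast library 4 accounted for 11 of the 17, as the lowest of its group each time. Its CPM was 793 for Top2a, 339 for Tpx2, 176 for Kif11, 163 for Kif23, 154 for Prc1, 62.6 for Aspm, 60.3 for Hmmr, 45.5 for Kif14, 41.1 for Ckap2, 34.5 for Anln and 24.0 for Kif20b. In this library the deviation from the group mean fell with transcript length over the 44 genes (Spearman −0.63). In control centroblast library 2 it rose with length (Spearman 0.77), measured from a group mean that includes library 4. Leaving control centroblast library 4 out raised the count of genes called lower in mutant centrocytes to 36 and in mutant centroblasts to 16. Over all genes it raised the count called lower to 1689 from 1394 in mutant centrocytes and to 1319 from 976 in mutant centroblasts. The rise in centrocytes was not particular to this library. Without control centroblast library 1 instead, 34 members were lower in mutant centrocytes and 3 in mutant centroblasts. Over all genes 1665 were lower in mutant centrocytes and 902 in mutant centroblasts in that fit.

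The other 6 were spread over 4 libraries. Mutant centroblast library 4 was low for Top2a at 674 CPM and high for Ube2s at 39.7 CPM. Mutant centroblast library 2 was high for Pttg1 at 40.2 CPM, and mutant centrocyte library 2 was low for Anln at 26.6 CPM. Control centrocyte library 1 was high for Aurka at 63.1 CPM and for Ube2c at 69.5 CPM. What sets these libraries apart was not tested.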

How the results depend on the processing

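No median change of the 44 genes turned round under any setting tried, and 0 genes were called higher in any comparison under any of them. The count of genes lower in mutant centroblasts (6) was 11 by DESeq2, 3 with all genes kept, 1 in a fit to centroblasts only, 0 with the replicate block, 0 in libraries 3 and 4 alone and 17 with the GC and length offset, and 1 to 16 with each library left out. In mutant centrocytes the count (27) was 14 in libraries 1 and 2 alone, 8 in libraries 3 and 4 alone, 14 without mutant centrocyte libraries 3 and 4, and 20 to 36 with each library left out. Over all genes the share lower in mutant centroblasts (6.4%) was 7.81% by DESeq2 and 2.81% with all genes kept. It was 4.98% with centroblasts only, 4.25% with the replicate block, 2.08% in libraries 3 and 4 alone and 8.94% with the offset. In mutant centrocytes the share (9.15%) was 3.85% in libraries 1 and 2 alone and 7.22% in libraries 3 and 4 alone. Without mutant centrocyte libraries 3 and 4 it was 4.55%. The cause of these shifts was not tested, beyond the smaller number of libraries in the subsets. Medians that moved by more than the SD between libraries of the groups compared were −0.41 in mutant centrocytes with the offset, −0.79 for centrocytes over centroblasts of mutants in libraries 3 and 4 alone, and −0.26 for the interaction in libraries 1 and 2 alone. The median in mutant centroblasts was −0.20 with the offset, a move below that SD. Between zones, 32 to 37 genes were called in mutants and 23 to 32 in controls with each library left out.

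With the replicate block, 28 genes were lower in mutant centrocytes, 39 lower in centrocytes of mutants, 23 lower in centrocytes of controls and 0 passed in the interaction. The shares of all genes called lower with the block were 8.43%, 10.4%, 9.6% and 0% in the same order. Same-numbered libraries had correlations of −0.0278 to 0.344 between mutant and control centroblasts and −0.0886 to 0.123 between mutant and control centrocytes. Between zones of controls they had −0.00590 to 0.452. In these comparisons the numbers are not shown to pair the samples, and 1, 0 and 1 of 4 pairs matched best by number both ways. Between zones of mutants 1 of 4 pairs also matched best both ways. Control libraries 2 and 3 had 0.395 and 0.452 between zones, above every mutant pair, and control libraries 1 and 4 had −0.00590 and 0.134. Every library had 35230563 reads or more and every member 14.1 CPM or more in each; how depth and the number of libraries share in the error was not tested.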
